A study of Mus musculus with 22 samples.

Results

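Expression of 10 heat shock genes was examined in the distal colon of C57BL/6 mice and of Winnie mice, whose colitis arises without an inducing agent from a missense mutation of Muc2, the gene of the main intestinal mucin. The genes were Hspa1a, Hspa1b, Hspa8, Hsph1, Dnajb1, Hspb1, Hsp90aa1, Hspd1, Hspe1 and Hsf1, taken by symbol from a table of 46078 genes, in which each symbol was found once. They were chosen because Hspa1b was low in Winnie against C57BL/6 while chaperones of the endoplasmic reticulum (ER) were high. Values of that comparison are therefore given as a description, and Hspa1b and its near-identical copy Hspa1a were not tested between the 3 groups. A label of cytosolic heat shock proteins covers 7 of the 10 genes, since Hspd1 and Hspe1 encode mitochondrial chaperonins and Hsf1 a transcription factor, so they are called heat shock genes here.

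RNA was sequenced from 22 libraries, 1 per mouse. The C57BL/6 group held 8 wild-type mice aged 14 weeks (4 males, 4 females). The Winnie group held 7 mice aged 14 weeks, labelled as inflamed (3 males, 4 females), and the Winnie-Prolapse group held 7 mice aged 18 weeks with prolapse, labelled as severely inflamed (4 males, 3 females). Age and prolapse cannot be told apart, no agent was given to any group, and the study's methods state that Winnie and C57BL/6 mice came from 1 breeding colony.

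Heat shock proteins are molecular chaperones that bind unfolded protein chains, keep them from aggregating and pass them between partners for folding. Hsp70 proteins work in ATP-driven cycles that J-domain proteins such as Dnajb1 promote and nucleotide exchange factors such as Hsph1 reset. Hsp90 finishes many of the clients. Under protein-damaging stress the transcription factor Hsf1 binds heat shock elements, which are repeats of the letters GAA in alternating orientation, and raises the inducible members. Unfolded proteins in the ER, such as a misfolded secreted mucin, act through a separate set of sensors and chaperones.

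The sequences before the start sites are shown because the inducible Hsp70 genes Hspa1a and Hspa1b share nearly all of their upstream sequence. Promoter windows of 250 bases upstream of a start were taken from RefSeq on GRCm38.p6, where 7 of the 10 genes had an entry and Hspa8, Hsp90aa1 and Hsf1 had none. Searched letters were GAANNTTC or TTCNNGAA for 2 adjoining units, each of which reads the same on both strands, and GAANNTTCNNGAA or its reverse complement TTCNNGAANNTTC for 3 units, which contain the former. Capitals mark every match. The lines below give the windows of Hspa1a at chr17:34972157-34972406 and Hspa1b at chr17:34959239-34959488, both on the minus strand, then Hspb1 at chr5:135887669-135887918 on the plus strand, all outside annotated exons. For Dnajb1, the part of the window outside exons is given, at chr8:83607972-83608174 on the plus strand.
Hspa1a: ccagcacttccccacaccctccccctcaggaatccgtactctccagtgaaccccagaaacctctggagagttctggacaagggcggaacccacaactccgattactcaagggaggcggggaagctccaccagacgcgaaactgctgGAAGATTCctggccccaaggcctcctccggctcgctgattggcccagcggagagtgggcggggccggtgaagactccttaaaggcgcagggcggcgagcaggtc
Hspa1b: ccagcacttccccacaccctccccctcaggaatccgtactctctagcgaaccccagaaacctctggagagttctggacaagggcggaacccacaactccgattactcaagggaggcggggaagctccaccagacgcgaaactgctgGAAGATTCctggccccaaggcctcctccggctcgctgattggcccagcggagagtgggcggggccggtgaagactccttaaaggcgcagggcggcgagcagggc
Hspb1: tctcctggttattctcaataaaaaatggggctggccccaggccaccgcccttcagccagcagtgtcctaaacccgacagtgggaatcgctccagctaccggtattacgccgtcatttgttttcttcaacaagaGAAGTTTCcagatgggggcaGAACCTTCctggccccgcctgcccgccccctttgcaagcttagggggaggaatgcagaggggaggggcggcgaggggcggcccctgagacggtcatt
Dnajb1: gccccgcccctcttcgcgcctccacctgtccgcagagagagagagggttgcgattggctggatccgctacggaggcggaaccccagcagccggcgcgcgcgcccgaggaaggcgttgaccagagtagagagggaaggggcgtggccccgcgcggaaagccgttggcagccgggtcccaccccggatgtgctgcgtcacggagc
The Hspa1a and Hspa1b windows differed at 3 of 250 bases (98.8% identity) and share a 2-unit match that begins 104 bases before the start, at position -104. Hspb1, a small heat shock protein, had 2 such matches, and the Dnajb1 windows had none of these letters.

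Hspd1 and Hspe1, the Hsp60 chamber and its Hsp10 lid in mitochondria, lie head to head on chromosome 1 and share 1 run of overlapping matches, 3 of 2 units and 2 of 3 units. It is shown on the Hspe1 strand at chr1:55088053-55088082, and the match of Hsph1 at chr5:149636351-149636380 on the minus strand. The first stretch lies in an annotated Hspd1 exon, and 26 of the 30 bases of the second in an Hsph1 exon.
Hspe1: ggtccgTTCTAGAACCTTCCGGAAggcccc
Hsph1: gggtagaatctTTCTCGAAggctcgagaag
Of the 7 genes with a window, 6 held a 2-unit match and 2 held a 3-unit match, in at least 1 of their 10 windows. The 2 genes with a 3-unit match share 1 run, and the windows of Hspa1a and Hspa1b are nearly identical. Over all 32851 promoter windows of this length, 12.8% held a 2-unit match and 0.466% a 3-unit match. These shares count windows, and the counts of members count genes. A match is a run of letters and was not tested as a binding site.

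Library totals ranged from 24817527 to 36344372 counts. Levels are given as CPM, the counts of a gene relative to the library total, and on this scale 3 counts, the limit for an uncounted gene, stood at 0.0825 to 0.121 CPM. All 10 heat shock genes were counted in every library. Epithelial markers (10 of 10) were counted in every library as well, with a summed level of 11500 to 21680 CPM. Winnie-Prolapse replicate 6 stood apart, with 19% of its counts in 8 milk protein genes against at most 0.00594% in the other 21 libraries. C57BL/6 replicate 7 had the highest Hspa1a, Hsph1, Hspb1, Hsp90aa1, Hspd1, Hspe1 and smooth muscle marker levels of its group and the lowest Hspa1b and Hspa8, and Winnie replicate 5 had the highest Hspb1 of its group. The share of counts from mitochondrial genes was 6.53% to 7.78% in C57BL/6, 5.08% to 8.56% in Winnie and 3.58% to 5.95% in Winnie-Prolapse, so that it did not overlap between the first and the last.

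Levels of different genes were compared per kilobase of annotated exon, with the exons of all transcripts merged. For Hsf1 this length was 7099 bases against 2104 in its longest protein-coding transcript, and for Hsph1 7266 against 3802. The order and overlaps below hold for the merged length and were not tested with transcript lengths. In C57BL/6, Hspa8, the constitutive Hsp70, stood highest at 156 ± 9.56 CPM per kb (SD, n = 8). Below it lay Hspd1 at 44.0 ± 9.91, Hspb1 at 40.2 ± 13.0, Hspe1 at 34.4 ± 6.88 and Hsp90aa1 at 31.7 ± 6.99 CPM per kb, and these 4 genes overlapped across libraries. Dnajb1 followed at 15.7 ± 1.22 CPM per kb, and its range overlapped with no other member. At the low end Hspa1b had 7.78 ± 0.952, Hsph1 4.35 ± 1.85, Hsf1 3.86 ± 0.472 and Hspa1a 2.56 ± 0.265 CPM per kb. The ranges of Hspa1b and Hsph1 overlapped through C57BL/6 replicate 7, those of Hsph1 and Hsf1 overlapped, and Hsf1 lay above Hspa1a in all libraries.

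**Figure D1:**
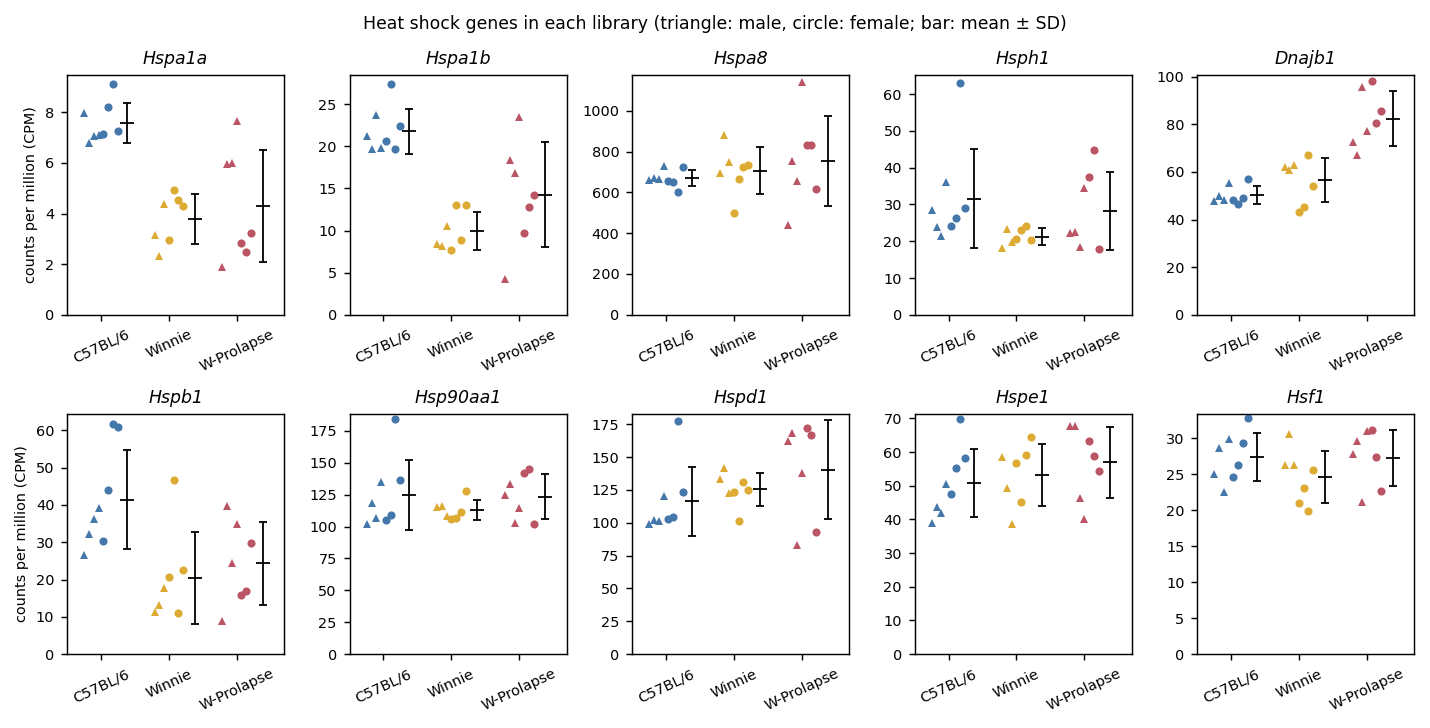
CPM of each heat shock gene (vertical axes from 0) in every library of the 3 groups on the horizontal axes, with triangles for males, circles for females and bars for the mean ± SD. Hspa1b lay at 19.7 to 27.4 CPM in C57BL/6 and at 7.73 to 13.1 CPM in Winnie, and Dnajb1 in Winnie-Prolapse lay above all C57BL/6 libraries.

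Hspa1b and Hspa1a encode the stress-inducible Hsp70. The lowest, median and highest Hspa1b levels were 19.7, 20.9 and 27.4 CPM in C57BL/6, 7.73, 8.92 and 13.1 CPM in Winnie, and 4.26, 14.3 and 23.5 CPM in Winnie-Prolapse. All 7 Winnie libraries lay below all 8 C57BL/6 libraries, and 6 of the 7 Winnie-Prolapse libraries did. The exception was Winnie-Prolapse replicate 4 at 23.5 CPM, while replicate 1 of the same group had the lowest level of all libraries. The fitted log2 difference of Hspa1b was -1.05 ± 0.136 (SE) in Winnie against C57BL/6, a 2.07-fold lower level, and -0.54 ± 0.243 in Winnie-Prolapse against C57BL/6. Winnie-Prolapse against Winnie gave 0.51 ± 0.275, with 4 of 7 Winnie-Prolapse libraries above every Winnie library and 1 below.

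Hspa1a was also highest in C57BL/6, at a lower level, while the medians of the diseased groups stood in the opposite order. Its lowest, median and highest levels were 6.80, 7.20 and 9.13 CPM in C57BL/6, 2.31, 4.29 and 4.92 CPM in Winnie, and 1.89, 3.24 and 7.67 CPM in Winnie-Prolapse. Winnie and C57BL/6 libraries again did not overlap. The log2 difference was -0.91 ± 0.162 in Winnie against C57BL/6 and -0.76 ± 0.245 in Winnie-Prolapse against C57BL/6. Among females alone the latter was -1.31, against -0.41 among males alone. Winnie-Prolapse against Winnie gave 0.16 ± 0.291, which was 0.72 in males alone and -0.53 in females alone.

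The genes of the pair sit next to each other on the minus strand of chromosome 17, Hspa1b at chr17:34956436-34959238 and Hspa1a at chr17:34969190-34972156 (GRCm38), each as 1 exon. Of the 100-base windows along the Hspa1b transcript, 49.9% were found unchanged in Hspa1a, so reads could be exchanged between them. Both together had 29.4 ± 2.88 CPM in C57BL/6 (SD, n = 8). The sum was 13.8 ± 3.08 CPM in the Winnie group (n = 7) and 18.6 ± 8.29 CPM in mice with prolapse (n = 7). Hspa1a held 22.9% to 31.7% of the pair's counts in C57BL/6, 21.95% to 33.8% in Winnie and 16.3% to 30.8% in Winnie-Prolapse, and these shares overlapped. With both counts summed into 1 gene, the log2 difference was -1.01 in Winnie and -0.60 in Winnie-Prolapse against C57BL/6.

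In Winnie against C57BL/6, the comparison from which Hspa1b was chosen, 0.0925% of 17289 genes were called in either direction at an adjusted p under 0.001 and at least 1.5-fold, and 0.00578% were called lower. The 16 calls behind this share became 677 without Winnie replicate 5, 199 with all 3 groups in 1 fit and 1205 with DESeq2. Hspa1b, which was chosen for this difference, was the 1 member past these limits, and nothing is read from that count. Libraries did not overlap for 2 of the 10 members, Hspa1a and Hspa1b, both lower, against 1.17% of all genes, which again describes the choice. Of the 10 log2 differences, 4 were above 0 and 6 below, with a median of -0.06 against -0.01 over all genes. The same C57BL/6 libraries enter the Winnie-Prolapse comparison and the same Winnie libraries the comparison of the diseased groups, so the values of the 3 comparisons are not independent of each other.

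Hspa8 carries most of the Hsp70 work of unstressed cells, and its libraries, unlike those of the inducible pair, overlapped between Winnie and C57BL/6. Its lowest, median and highest levels were 602, 665 and 731 CPM in C57BL/6, 497, 723 and 879 CPM in Winnie, and 441, 755 and 1142 CPM in Winnie-Prolapse. All 3 groups overlapped, and the diseased groups were more spread. The log2 difference of Winnie-Prolapse against C57BL/6 was 0.25 ± 0.146 (SE; edgeR quasi-likelihood test, adjusted p = 0.156) and that against Winnie 0.10 ± 0.174 (adjusted p = 0.742). In 4 of 7 Winnie-Prolapse libraries Hspa8 lay above the highest C57BL/6 library, and in 1, replicate 1, it lay below the lowest. A processed pseudogene, Gm15459, shared 58.5% of the 100-base windows of Hspa8 and held 35.2% as many counts. With the counts of such copies added, the Winnie-Prolapse difference of Hspa8 was 0.26 (adjusted p = 0.161).

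Dnajb1, the J-domain protein that hands unfolded chains to cytosolic Hsp70, was the member that rose. Its lowest, median and highest levels were 46.4, 48.6 and 57.1 CPM in C57BL/6, 43.1, 60.8 and 67.2 CPM in Winnie, and 66.9, 80.4 and 98.1 CPM in Winnie-Prolapse. All 7 Winnie-Prolapse libraries lay above all 8 C57BL/6 libraries, and 6 of them above all Winnie libraries. Dnajb1 rose 1.76-fold in Winnie-Prolapse against C57BL/6, a log2 change of 0.81 ± 0.108 (edgeR, adjusted p = 2.38e-05). The lower mitochondrial share of the Winnie-Prolapse libraries moved with this comparison, and its part in the result was not tested. Dnajb1 was the 1 gene called higher among the 8 members tested, and none was called lower, while 18.3% of 17397 genes were called in this comparison (9.84% higher, 8.47% lower). It was also the 1 tested member whose libraries did not overlap, against 6.5% of all genes with higher libraries that did not. At an adjusted p under 0.05 with the same fold, 1 member was higher and 1 lower, against 16.7% and 17.7% of all genes. An unadjusted p under 0.05 was reached by 2 of 8 members and 58.5% of all genes. These comparisons share the C57BL/6 libraries on which the genes were chosen. In males alone the change was 0.69 (adjusted p = 0.0199) and in females alone 0.97 (adjusted p = 0.00109), the same direction with neither past the threshold.

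Against Winnie, the Winnie-Prolapse level of Dnajb1 was 1.48-fold higher, at 0.56 ± 0.143 on the log2 scale (adjusted p = 0.0295), short of the 1.5-fold limit. In that comparison edgeR gave 0 calls over 17041 genes (0%), limma-voom 0 and DESeq2 645, and 27.8% of the genes had an unadjusted p under 0.05 with edgeR. Of the 8 members tested there, 0 were called by edgeR, DESeq2 or limma-voom, and 1, Dnajb1, had an unadjusted p under 0.05 with edgeR. With a limit of 0.05 in place of 0.001, the members again gave 0 calls, against 6.99% of all genes. Dnajb1 passed that limit in 5 of the 14 fits that left out 1 library (log2 change up to 0.634) and in females alone (0.757, adjusted p = 0.0271). All 10 log2 differences were above 0, with a median of 0.16 against 0.01 over all genes. They include Hspa1b, chosen as low in these Winnie libraries, and its near-identical copy Hspa1a, so this count is a description. Hspa1a turned to -0.00464 without Winnie-Prolapse replicate 4, and Hspa8 and Hsf1 turned below 0 in males alone. In Winnie against C57BL/6, Dnajb1 differed by 0.25 ± 0.0965 on the log2 scale, with 4 of 7 Winnie libraries above the C57BL/6 range and 2 below it. No 100-base window of Dnajb1 was found in another gene.

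**Figure D2:**
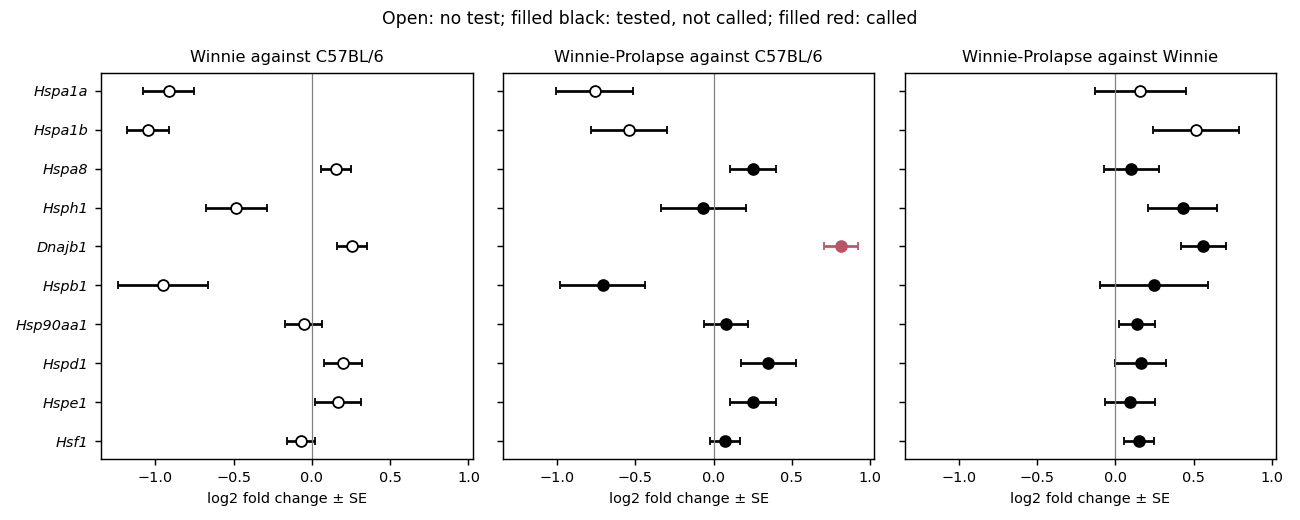
Log2 fold changes with standard errors (horizontal axes) of the 10 heat shock genes (vertical axis) in the 3 comparisons, with open points for values that were not tested, black for tested and red for called. Dnajb1 at 0.81 in Winnie-Prolapse against C57BL/6 is the red point, and the lowest point is Hspa1b at -1.05 in Winnie.

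Hsph1, the Hsp110 protein that resets Hsp70, had lowest, median and highest levels of 21.6, 27.4 and 63.0 CPM in C57BL/6, 18.1, 20.5 and 24.1 CPM in Winnie, and 17.8, 22.6 and 44.7 CPM in Winnie-Prolapse. The 63.0 CPM belonged to C57BL/6 replicate 7, and the next library of that group had 36.2 CPM. The groups overlapped in every comparison. Its log2 difference was -0.48 ± 0.194 in Winnie against C57BL/6 and -0.26 without C57BL/6 replicate 7. Winnie-Prolapse against C57BL/6 gave -0.06 ± 0.269 (edgeR, adjusted p = 0.853), which became 0.17 without that library (adjusted p = 0.525).

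Hspb1, the small heat shock protein also called Hsp25 in mice, binds unfolded chains without ATP and stabilises actin filaments. Its lowest, median and highest levels were 26.6, 37.8 and 61.7 CPM in C57BL/6, 10.9, 17.7 and 46.7 CPM in Winnie, and 8.94, 24.3 and 39.8 CPM in Winnie-Prolapse. Winnie replicate 5 reached 46.7 CPM, and the other 6 Winnie libraries lay below the C57BL/6 range. The log2 difference of Winnie against C57BL/6 was -0.95 ± 0.289, and -1.27 without Winnie replicate 5. Winnie-Prolapse against C57BL/6 gave -0.71 ± 0.269 (edgeR, adjusted p = 0.0363), which was not called at 0.001 and passed at 0.05, where 17.7% of all genes were lower. It passed at 0.05 in 10 of the 15 fits that left out 1 library, and gave -0.32 in males alone (adjusted p = 0.517) and -1.08 in females alone (adjusted p = 0.0369). The pseudogene Hsp25-ps1 shared 42.7% of its windows, and with copies added the difference was -0.69 (adjusted p = 0.039).

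Hsp90aa1, the inducible cytosolic Hsp90, lay between 102 and 184 CPM in C57BL/6, 106 and 128 CPM in Winnie, and 102 and 145 CPM in Winnie-Prolapse. Medians were 114, 111 and 125 CPM in the same order, and the ranges overlapped. Its log2 difference was -0.05 ± 0.116 in Winnie and 0.08 ± 0.14 in Winnie-Prolapse against C57BL/6 (adjusted p = 0.663 for the latter). The sign of the latter depended on scaling and on 1 library, being -0.00113 with library sizes alone and -0.00378 without Winnie-Prolapse replicate 6. The Winnie value also turned, to 0.0482 without C57BL/6 replicate 7.

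Hspd1 and Hspe1, which form the folding chamber of the mitochondrial matrix, were not called in any tested comparison. Hspd1 had lowest, median and highest levels of 99.4, 104 and 177 CPM in C57BL/6, 101, 125 and 141 CPM in Winnie, and 82.7, 162 and 172.5 CPM in Winnie-Prolapse. The Winnie-Prolapse libraries overlapped with C57BL/6, with 2 below its lowest library. The log2 difference of Hspd1 was 0.35 ± 0.174 in Winnie-Prolapse against C57BL/6 (edgeR, adjusted p = 0.101), and 0.47 without C57BL/6 replicate 7 (adjusted p = 0.0144, below the 1.5-fold limit). Hspe1 gave 0.25 ± 0.145 (adjusted p = 0.154), with levels of 38.9 to 69.8 CPM in C57BL/6, 38.6 to 64.5 CPM in Winnie and 40.2 to 67.8 CPM in Winnie-Prolapse. The Hspd1 to Hspe1 count ratio was 2.30 ± 0.227 in the 8 C57BL/6 mice (SD), against 2.42 ± 0.442 for the Winnie group and 2.48 ± 0.599 for mice with prolapse (n = 7 each). The annotated exons of these genes overlap by 112 bases on opposite strands, and the strand setting of the counting is not given in the sources used here.

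Hsf1 itself, the transcription factor of the heat shock response, stood between 22.5 and 32.7 CPM in C57BL/6, 19.9 and 30.5 CPM in Winnie, and 21.2 and 31.1 CPM in Winnie-Prolapse. The medians were 27.4, 25.6 and 27.8 CPM. Its log2 difference was -0.07 ± 0.0909 in Winnie, where males alone gave 0.0881, and 0.07 ± 0.0939 in Winnie-Prolapse against C57BL/6 (adjusted p = 0.526 for the latter). Hsf1 protein activity is set after translation, which these counts do not measure.

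Summed over the 10 genes, the level was 1060 to 1265 CPM in C57BL/6, 899 to 1324 CPM in Winnie and 933 to 1643 CPM in Winnie-Prolapse. These ranges overlapped. The highest sum was that of Winnie-Prolapse replicate 4, which also had the highest Hspa8.

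Other chaperone genes were grouped by compartment and role, from lists of known members. ER chaperones had the highest median of these lists in Winnie-Prolapse against C57BL/6. Since high ER chaperones were part of how the heat shock genes were chosen, and the C57BL/6 libraries are the same, these genes are described without a test. Of 18 genes, 14 were past the limits in the higher direction and 0 in the lower, with a median log2 difference of 0.95 against -0.01 over all genes, of which 9.84% were called higher. Plasma cell markers, 5 of 6 of which rose, moved with this difference (summed level 418 to 797.5 CPM in C57BL/6 and 1406 to 2092 CPM in Winnie-Prolapse), and their part in it was not tested. Calr, a lectin chaperone, had 702 ± 67.1 CPM in C57BL/6 and 1452 ± 131 CPM in Winnie-Prolapse (SD, n = 8 and 7), a log2 difference of 1.14 ± 0.109. Pdia3 and P4hb, both disulfide isomerases, differed by 0.89 ± 0.0854 and 0.95 ± 0.103 on the log2 scale, and the secreted ER protein Manf by 1.34 ± 0.132. Hspa5, the Hsp70 of the ER, named outside the rule for list genes, had 9.30 to 21.9 times the counts of Hspa1b in C57BL/6, 19.7 to 90.7 times in Winnie and 30.2 to 160 times in Winnie-Prolapse. Both genes of this ratio belong to the choice of the heat shock genes, so its direction is fixed by that choice.

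Cytosolic chaperones outside the 10 genes were called in both directions, where 9.84% of all genes were called higher and 8.47% lower. These shares hold for the lists below as well. Of 42 genes in 4 lists, 38 were tested, and 2 rose and 2 fell. With 1 library left out, 2 to 5 were called, and 2 in 6 of the 15 such fits (without C57BL/6 replicate 2, 3 or 5, or Winnie-Prolapse replicate 4, 5 or 6). Of other Hsp70, Hsp110 and Hsp90 genes, 1 of 5 tested rose, Hspa4l, a further Hsp110 relative, from 28.0 ± 3.47 to 59.4 ± 19.8 CPM (log2 change 1.18 ± 0.183, adjusted p = 8.98e-05). Hsp90ab1, the constitutive cytosolic Hsp90, differed by 0.17 ± 0.122 (adjusted p = 0.252) and Hspa4 by 0.12 ± 0.103 (adjusted p = 0.343). Of 17 cochaperones 1 rose, Stip1, the adaptor that joins Hsp70 to Hsp90, by 0.61 ± 0.123 on the log2 scale (adjusted p = 0.000731), a call kept in 7 of the 15 fits that left out 1 library, whereas that of Hspa4l was kept in all 15. Fkbp4, Bag1 and St13, the cochaperones highest in CPM, gave 0.15, -0.07 and -0.08 on that scale and were not called.

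Of 10 J-domain proteins of the cytosol other than Dnajb1, 1 fell and 0 rose. Dnajb5 fell from 37.4 ± 3.9 to 17.4 ± 5.01 CPM, a log2 change of -1.03 ± 0.142 (adjusted p = 3.25e-05), opposite to its relative Dnajb1, and kept this call in each of those 15 fits. Dnajc5, Dnaja2 and Dnajc7 gave -0.27, 0.03 and -0.01 on the log2 scale and were not called. Of 6 small heat shock proteins tested besides Hspb1, 1 fell, Hspb11, by -0.73 ± 0.143 (adjusted p = 0.000575), a call kept in 4 of the 15. The median over the 6 was -0.83 against -0.01 over all genes. At an adjusted p under 0.05 with the same fold, 5 of these 6 were lower, against 17.7% of all genes. Hspb6, Hspb8 and Hspb7, which are abundant in muscle, gave -0.85 ± 0.33, -0.81 ± 0.224 and -1.40 ± 0.295 (adjusted p = 0.0401, 0.00669 and 0.00103). Hspb11 is named for the family and takes part in transport within cilia.

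TRiC, the cytosolic chaperonin that folds actin and tubulin, had 8 of 8 subunits tested and 0 called by edgeR or DESeq2, with 5 at an unadjusted p under 0.05, near the 58.5% of all genes, and a median of 0.20. Tcp1, Cct2 and Cct6a gave log2 values of 0.25 ± 0.09, 0.14 ± 0.0744 and 0.40 ± 0.0762 with adjusted p = 0.0294, 0.134 and 0.000436, below the 1.5-fold limit. Of 14 mitochondrial chaperones and proteases, 1 fell, Hscb, a J-domain protein of iron-sulfur cluster assembly, by -0.62 ± 0.119 (adjusted p = 0.000465), and 0 rose. In 11 of the 15 fits that left out 1 library, no gene of this list was called. Hspa9, the mitochondrial Hsp70, gave 0.34 ± 0.0919 (adjusted p = 0.00607), Afg3l2 -0.38 and Yme1l1 0.09. Of 4 genes tested among the other heat shock factors and the Hsf1-binding protein, 0 were called by edgeR (1 at an unadjusted p under 0.05), and Hsbp1, Hsf2 and Hsf4 gave 0.05, -0.32 and -0.28 (adjusted p = 0.608, 0.0572 and 0.282).

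**Figure D3:**
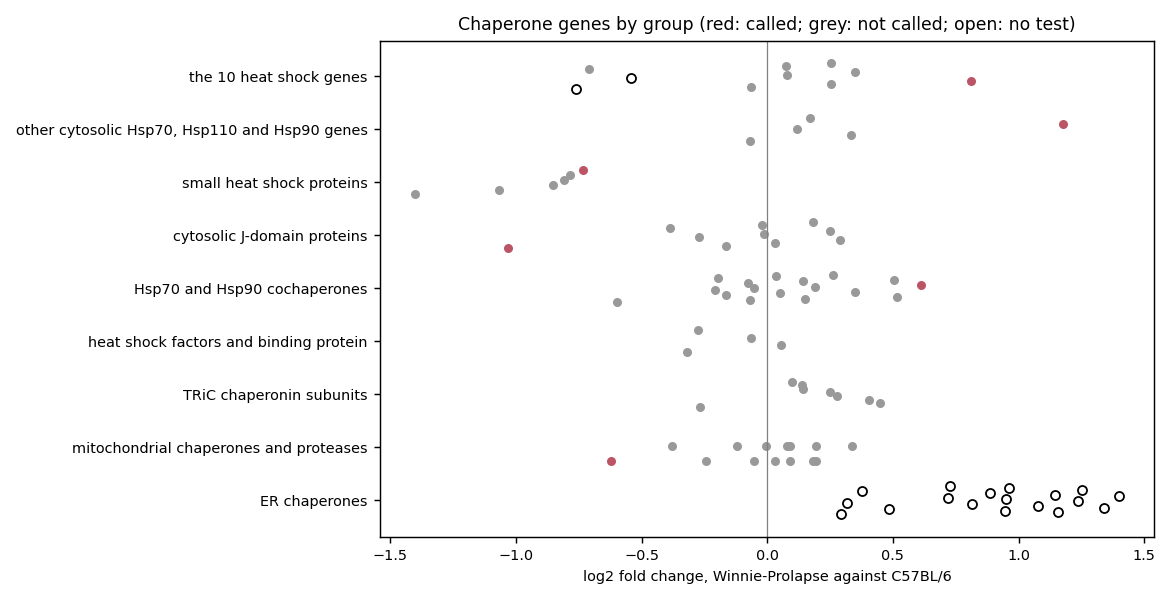
Log2 fold changes of Winnie-Prolapse against C57BL/6 (horizontal axis) for each chaperone gene, in rows by list with points spread vertically to avoid overlap (red called, grey not called, open not tested). The 18 ER chaperones, given as a description, are open points with a median of 0.95, and the 10 heat shock genes have 1 red point, Dnajb1.

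Cell type markers moved with the groups. The summed level of 10 smooth muscle markers was 7924 to 15030 CPM in C57BL/6, 2363 to 9079 CPM in Winnie and 1678 to 3857 CPM in Winnie-Prolapse, where 10 of 10 markers fell. Tagln, Cnn1, Des and Synpo2 fell by 1.93, 2.09, 1.77 and 1.72 on the log2 scale, and the abundant Myh11 and Acta2 by 1.98 and 1.64. Enteric neuron and glia markers fell in 7 of 10 (Stmn2, a neuronal tubulin regulator, by 2.14, and Uchl1 by 2.10), with summed levels of 83.5 to 196, 27.5 to 92.9 and 31.7 to 59.4 CPM. Of 8 leukocyte markers 3 rose (Cd53, Lcp1 and Laptm5 by 1.69, 1.75 and 1.62). The leukocyte count was 8 of 8 at an adjusted p under 0.05 with the same fold, where 16.7% of all genes were higher. Of 6 plasma cell markers 5 rose (Derl3 by 2.98, Jchain by 2.82, Mzb1 by 2.36, Xbp1 by 0.93). Epithelial markers gave 0 of 10 called by edgeR, with 5 at an unadjusted p under 0.05 and Krt20 past an adjusted p of 0.05. Of 8 milk protein genes, 5 were tested and 0 called, with 5 at an unadjusted p under 0.05 and the counts in replicate 6. In such bulk tissue, fewer cells of a type and less RNA per cell cannot be told apart, and the part of these shifts in the levels of Hspa1a, Hspa1b and the small heat shock proteins was not tested between groups.

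Within groups, the summed smooth muscle level and Hspb1 gave Pearson's r = 0.475 and Spearman's rho = 0.42 over the 22 libraries (permutation p = 0.0539 and 0.0861, adjusted p = 0.24 and 0.326 over 40 relations of the members with 4 summed lists). Smooth muscle and Hspa1b gave r = 0.282 and rho = 0.337 (permutation p = 0.256 and 0.181, adjusted p = 0.539 and 0.445). Immediate early genes, which respond within minutes to handling or stress, summed to 1731 to 2219 CPM in C57BL/6, 1489 to 3672 CPM in Winnie and 1384 to 2896 CPM in Winnie-Prolapse. Of 18 of them, 2 rose in Winnie-Prolapse against C57BL/6, near the 9.84% of all genes that were called higher. These were Egr2, by 3.03, and Ier3, by 2.04 on the log2 scale. Klf6, Jund and Fos gave 0.13, -0.41 and 0.57 and were not called. The summed immediate early level and Hspa1b gave r = 0.411 and rho = 0.39 within groups (permutation p = 0.0993 and 0.118, adjusted p = 0.356 and 0.392). With Hspa1a the values were r = 0.596 and rho = 0.608 (permutation p = 0.0143 and 0.0125, adjusted p = 0.119 and 0.1), and r = 0.743 without the 2 farthest libraries.

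Deviations of each library from its group mean, in log2 CPM, showed which members moved together from mouse to mouse apart from the group differences. This was added after the values were seen. Of 45 pairs, 9 had both Pearson and Spearman permutation p under 0.05 after adjustment over the 45, and r was above 0 in all 9. They fell into 1 set of Hspa1b with Hspa1a and Hspb1, and another of Hsp90aa1, Hspd1, Hspe1, Hsph1 and Hsf1. Not every pair within a set was among the 9. Those outside were Hspa1a with Hspb1 (r = 0.654), Hspe1 with Hsf1 (0.206), and Hsph1 with Hspe1 (0.306) and with Hsf1 (0.451). All values of a library share its depth and composition.

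Hspa1a and Hspa1b gave r = 0.819 and rho = 0.717 (n = 22, permutation p = 2e-04 and 0.00295, adjusted p = 0.0045 and 0.019), and r = 0.699 without the 2 libraries farthest from the median. By group r was 0.134 (C57BL/6), 0.751 (Winnie) and 0.871 (Winnie-Prolapse). These copies share 49.9% of the Hspa1b windows, and the part of reads exchanged between them in this relation was not tested. Hspb1 and Hspa1b gave r = 0.726 and rho = 0.679 (permutation p = 0.00045 and 0.00249, adjusted p = 0.00675 and 0.0187), 0.629 without the 2 farthest libraries, and 0.123, 0.717 and 0.929 by group. Without Winnie-Prolapse replicate 1 or 5 the adjusted permutation p of rho was 0.0751 or 0.058.

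Hsp90aa1 and Hspd1 gave the highest value of the 45, r = 0.848 and rho = 0.863 (permutation p = 1e-05 for both, the smallest the permutations can give, adjusted p = 0.00045), 0.786 without the 2 farthest libraries, with 0.97, 0.404 and 0.922 by group. Hsp90aa1 with Hspe1 gave r = 0.677 and rho = 0.669 (permutation p = 0.00083 and 0.00154, adjusted p = 0.00934 and 0.0139), and Hspd1 with Hspe1 r = 0.612 and rho = 0.675 (permutation p = 0.00461 and 0.00143, adjusted p = 0.023 and 0.0139). Without the 2 farthest libraries these had r = 0.605 and 0.483. Without C57BL/6 replicate 7, Hsp90aa1 with Hspe1 had adjusted permutation p = 0.064 and 0.069, and Hspd1 with Hspe1 0.162 and 0.0266. Without Winnie-Prolapse replicate 3, the Pearson value was 0.0554 for Hspd1 with Hspe1 and 0.0502 for Hspd1 with Hsf1. Hsf1 moved with Hsp90aa1 (r = 0.608, rho = 0.674, adjusted permutation p = 0.0138 and 0.0139) and with Hspd1 (r = 0.654, rho = 0.686, adjusted permutation p = 0.0139 for both), and r = 0.734 and 0.599 without the 2 farthest libraries. Hsph1 with Hsp90aa1 (r = 0.779, rho = 0.632, adjusted permutation p = 0.00999 and 0.0411) and with Hspd1 (r = 0.723, rho = 0.613, adjusted permutation p = 0.0138 and 0.0424) lost an adjusted p under 0.05 in 10 and 11 of the 22 settings that left out 1 library. Without C57BL/6 replicate 7 both measures were lost, r being 0.627 and 0.611, with adjusted permutation p = 0.103 and 0.186 for r. With the other libraries left out, and with TMM scaling (0.0589 for each pair), the loss was that of rho. Within Winnie the Hsph1 relations had r = -0.158 and -0.114.

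Without C57BL/6 replicate 7, 5 of the 9 pairs kept both adjusted p under 0.05, and 5 did without Winnie-Prolapse replicate 3, whereas 7 did with TMM-scaled CPM. Hspa1a with Hspa1b, and Hsp90aa1 with Hspd1 and with Hsf1, were lost in 0 of the 22 settings that left out 1 library. Dnajb1 was in none of the 9 pairs. Its r with Hspa1b was -0.0556, and with Hspa8, its Hsp70 partner, 0.364.

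**Figure D4:**
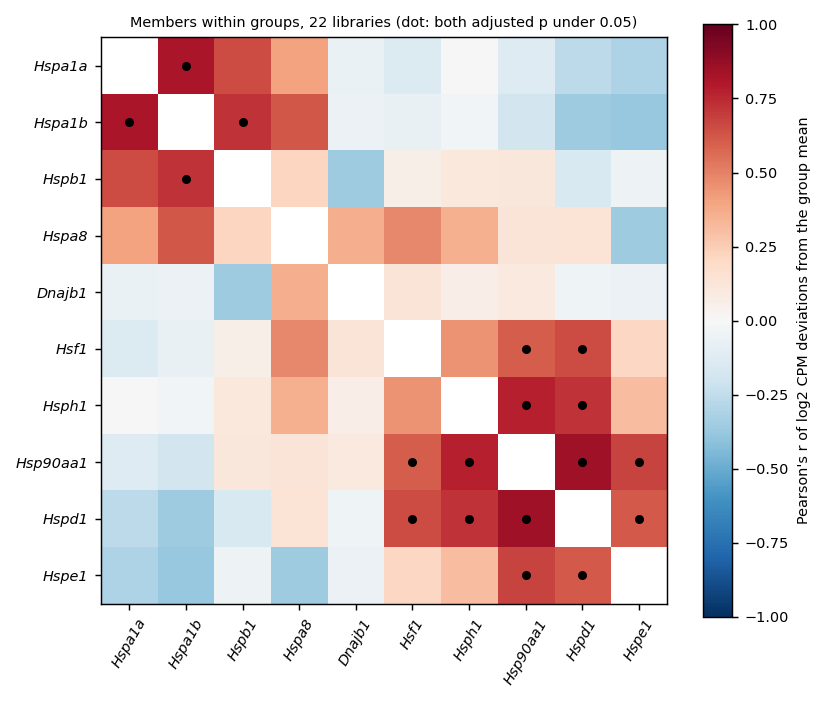
Pearson's r of log2 CPM deviations from the group mean for the 45 member pairs over 22 libraries (rows and columns are genes, colour from -1 to 1), with dots where both adjusted p were under 0.05. Dots fall on Hspa1b with Hspa1a and Hspb1, and among Hsp90aa1, Hspd1, Hspe1, Hsph1 and Hsf1, and none on Dnajb1.

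The summed ER chaperone level moved within groups with Hspd1 (r = 0.574, rho = 0.704, adjusted permutation p = 0.0024 and 0.0076 over 40 relations) and Hsp90aa1 (r = 0.504, rho = 0.659, adjusted permutation p = 0.0102 and 0.0124), and with Hsph1 at the border (r = 0.433, rho = 0.61, adjusted permutation p = 0.0496 and 0.021). Its relation to Hspa1b had the opposite sign, with r = -0.383 (permutation p = 0.0369, adjusted p = 0.24) and rho = -0.662 (permutation p = 0.0019, adjusted p = 0.021), and 1 of these 2 measures passed. Without the 2 libraries farthest from the median of the ER level, r was 0.61 for Hspd1, 0.677 for Hsp90aa1 and -0.337 for Hspa1b.

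The genes whose within-group pattern was most like that of Hspa1b, by Pearson's r over 22 libraries among 17768 genes, were Fam46b (0.851), Hspa1a (0.819), Cd109 (0.783), Hspa2 (0.766) and mt-Tt (0.738). They were taken as the 5 highest, so these values are a description with no test.

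**Figure D5:**
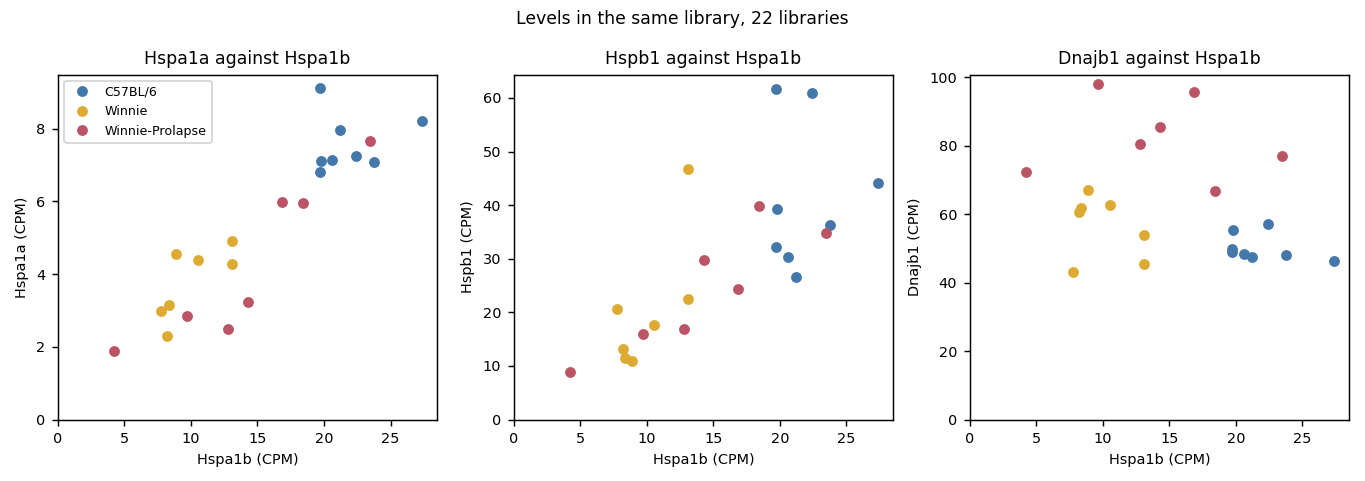
CPM of Hspa1a, Hspb1 and Dnajb1 (vertical axes) against CPM of Hspa1b (horizontal axes) in the same 22 libraries, coloured by group, all axes linear from 0. Winnie libraries sit left of all C57BL/6 libraries, and Dnajb1 in Winnie-Prolapse lies at 66.9 to 98.1 CPM, with 6 of 7 libraries above all Winnie libraries.

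Counts of Dnajb1 divided by those of Hspa1b came to 1.69 to 2.80 per C57BL/6 library, 3.48 to 7.54 per Winnie library and 3.28 to 17 per Winnie-Prolapse library. Every Winnie and Winnie-Prolapse library lay above every C57BL/6 library. The ratio was chosen after the values were seen and holds Hspa1b, so it is given without a test.

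Males and females were compared over all 22 libraries (11 each) with group as a covariate, a comparison not used to choose the genes. No member was called by edgeR, DESeq2 or limma-voom, while 0.0675% of 17769 genes were called, and the smallest adjusted p of a member was 0.966. Of the 10 members, 3 had an unadjusted p under 0.05, against 4.37% of all genes. They were Hspe1, with a male minus female log2 difference of -0.32 ± 0.108 (57.5 CPM in females and 49.4 in males on average), Hsph1 with -0.40 ± 0.173 and Hsp90aa1 with -0.20 ± 0.0943. Hspe1 and Hsph1 each moved with Hsp90aa1 within groups, and C57BL/6 replicate 7, a female, was highest of its group for all 3. These 3 are therefore not separate results. Hspa1b gave -0.08 ± 0.191 (adjusted p = 0.986) and Dnajb1 -0.05 ± 0.0994 (adjusted p = 0.981).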

How the data were processed

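Poly(A) RNA of distal colon was sequenced in paired ends from stranded libraries. The authors aligned reads to GRCm38 with the RNAsik pipeline and counted them with featureCounts, and the deposited table holds raw read counts per gene, whole numbers with no normalization. The submitters' processing notes also name STAR and limma. Annotation release, strand setting and handling of shared reads are not given in the sources used here. The study's text gives a smaller Winnie group than the labels, which were followed.

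Groups, ages and sexes came from the labels. Replicate numbers follow the sample list and pair nothing. Pairs of libraries within a group differed beyond sampling noise (chi-square over its degrees of freedom at least 28.8), so none was a duplicate. Depth was 24817527 to 36344372 counts. Floors cover counting error only. Xist and Ddx3y matched the labelled sex in 22 of 22 libraries. Muc2, whose mutation is a missense change and is not read by its level, lay at 2505 to 7901 CPM in C57BL/6, 1029 to 3254 in Winnie and 1292 to 3079 in Winnie-Prolapse.

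The quasi-likelihood test of edgeR 4.0.16 (R 4.3.3; TMM, filterByExpr) was applied to the counts, each comparison on its own groups, with Benjamini-Hochberg adjustment over all genes tested. A gene was called at an adjusted p under 0.001 and at least 1.5-fold, the study's limits. "Rose" and "fell" mean called. CPM values were counts over the library total, and log2 CPM had a prior count of 2. Correlations used 100000 permutations within groups, two-sided. The test was checked on simulated data. Alternatives were library sizes without TMM, DESeq2 1.42.0, limma-voom (limma 3.58.1), a bias-adjusted fit, other filters, sex as a covariate, 1 fit of 3 groups, each sex alone, summed copies and leaving out each library. The labels do not say that mice came from separate litters or cages, so p-values measure the spread between these mice.

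Gene positions and shared 100-base windows came from GENCODE on GRCm38, promoters from RefSeq. The 10 members and 15 gene lists were chosen with earlier results of these data known. Named were the 10 members, of each other list the 3 tested genes highest in mean CPM and up to 4 called with the smallest adjusted p in Winnie-Prolapse against C57BL/6, and the 5 genes most like Hspa1b. Some genes that this rule names are not reported here.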

Additional observations from a re-analysis of the deposited data

Results flagged for a closer look

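Among 30 combinations of a heat shock gene and a group, 4 had 1 library farther from the others than Dixon's 95% limit, where about 1 in 20 is flagged by chance. Of these, 3 were the same mouse, C57BL/6 replicate 7. It had the highest level of its group for Hsph1 (63 CPM, next 36.2 CPM), Hsp90aa1 (184 CPM, next 137 CPM) and Hspd1 (177 CPM, next 124 CPM). The gaps to the next library covered 0.646, 0.577 and 0.689 of the group's range, past the limit of 0.526 for 8 samples. Its Hspa1b level, 19.7 CPM, was the lowest of the C57BL/6 group. The other was Hspb1 in Winnie replicate 5, at 46.7 CPM against 22.5 CPM in the next library, a gap of 0.677 of the range (limit 0.568 for 7 samples).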

How the results depend on the processing

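No paired analysis was possible because the labels give no replicate numbers that tie mice of different groups. Dnajb1 was called higher in Winnie-Prolapse against C57BL/6 by DESeq2, by limma-voom and in all 15 fits that left out 1 library (log2 change 0.758 to 0.895, adjusted p at most 0.000152). In that comparison the number of members called was 0 in males alone and 0 in females alone, which hold fewer samples, and 2 at an adjusted p under 0.05. The number of other cytosolic chaperones called was 4, where 18.3% of all genes were called. It was 8 at an adjusted p under 0.05, where 16.7% of all genes were higher and 17.7% lower. Leaving out 1 library gave from 2 to 5 of these (2 without C57BL/6 replicate 2, 3 or 5, or Winnie-Prolapse replicate 4, 5 or 6), and from 0 to 1 mitochondrial chaperones, with 0 in 11 of the 15 fits. Pairs of members moving together numbered from 5 to 10 when 1 library was left out.

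Some tested differences changed sign, none of them past the threshold. Hsph1 in Winnie-Prolapse against C57BL/6 was 0.0908 in females alone and ranged from -0.267 to 0.171 when 1 library was left out. Hsp90aa1 in that comparison was -0.00113 with library sizes alone and from -0.00378 to 0.191 when 1 library was left out. In Winnie-Prolapse against Winnie, males alone gave -0.0496 for Hspa8 and -0.0135 for Hsf1, and Hspb1, at 0.248 with both sexes, was 0.931 in males alone and -0.218 in females alone (adjusted p = 0.823 and 0.744). The causes were not tested. Over all genes, calls in Winnie against C57BL/6 numbered 16 with edgeR, 1205 with DESeq2, 0 with limma-voom, 68 without a filter, 199 with all 3 groups in 1 fit and 677 without Winnie replicate 5. Those in Winnie-Prolapse against C57BL/6 numbered 3186 with edgeR and 5005 with DESeq2. Adding copies of shared sequence, and TMM scaling of the CPM used for the member pairs, were chosen after seeing the data.

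Depth did not limit the members, the lowest of which, Hspa1a, stood at 1.89 CPM against a floor of at most 0.121 CPM. Reads shared between near-identical genes and age in the Winnie-Prolapse group remain limits.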
